A study of Mus musculus with 6 samples.

Results

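The Cyp2d genes encode cytochrome P450 enzymes of subfamily 2D, and 9 of them were followed by name in liver RNA-Seq of laboratory and wild house mice: Cyp2d9, Cyp2d10, Cyp2d11, Cyp2d12, Cyp2d13, Cyp2d22, Cyp2d26, Cyp2d34 and Cyp2d40. All 9 were listed for every mouse and all 9 passed the filter on low values, among 18632 genes tested out of 47256 names that occur a single time in each table. A further 10 Cyp2d loci, all annotated as pseudogenes, were listed beside them. The laboratory group was 3 adult males of the inbred strain C57BL/6, killed on arrival from a breeder. The wild group was 3 adult Mus musculus trapped alive in New South Wales and then kept for some months in housing, comprising 1 male and 1 female from Murrumbateman (wild mice 1 and 2) and 1 female from Yass (wild mouse 3). RNA was taken from frozen, unfixed liver, and no mouse carried an engineered allele. The laboratory group held no female, so origin and sex overlap, and 3 comparisons were made: laboratory against wild, the same with sex in the model (in effect 3 laboratory males against 1 wild male), and male against female with origin in the model (in effect 1 wild male against 2 wild females).

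Cytochrome P450 enzymes of this kind sit in the membrane of the endoplasmic reticulum, bind haem, and use electrons handed over by NADPH-cytochrome P450 reductase or cytochrome b5 to insert oxygen into lipophilic substrates such as steroids and drugs. The mouse subfamily expanded by repeated duplication, whereas the human genome keeps one active gene of the subfamily, a well-known enzyme of drug metabolism. In mouse liver Cyp2d9 is the textbook male-biased member, a testosterone hydroxylase whose transcription follows the male pattern of growth hormone release.

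The members lay side by side on chromosome 15, within 424 kb of GRCm38 from position 82370527 to 82794452. In chromosomal order they were Cyp2d22 (82370527 to 82380260), Cyp2d11 (82389154 to 82394022), Cyp2d10 (82402845 to 82407253), Cyp2d9 (82452377 to 82456827), Cyp2d12 (82555043 to 82559413), Cyp2d34 (82615963 to 82620956), Cyp2d13 (82636750 to 82642045), Cyp2d40 (82759833 to 82764122) and Cyp2d26 (82790107 to 82794452). RefSeq annotates 8 as protein-coding and Cyp2d13 as a transcribed pseudogene. Of the 8 protein-coding members, GENCODE placed Cyp2d9 and Cyp2d12 on the plus strand and the other 6 on the minus strand. The coding sequence ran to 504 codons in Cyp2d9, Cyp2d10, Cyp2d11, Cyp2d12 and Cyp2d34, to 500 in Cyp2d22 and Cyp2d26, and to 338 in Cyp2d40. The copies are close. Coding sequences matched at 94.7% of aligned bases between Cyp2d10 and Cyp2d11, at 93.3% between Cyp2d9 and Cyp2d11, at 92.5% between Cyp2d9 and Cyp2d10 and at 92.2% between Cyp2d9 and Cyp2d12, and at 77.8% for the most distant pair, Cyp2d12 and Cyp2d22. Windows of 100 bases, the length of the reads, were found unchanged in another gene's transcript for 14.9% of the windows of Cyp2d10, 12.2% of Cyp2d11, 9.86% of Cyp2d9 and 3.79% of Cyp2d12, for at most 0.375% of Cyp2d22, Cyp2d26 and Cyp2d34, and for none of Cyp2d40. Reads in shared windows could be assigned to either copy, so the levels of Cyp2d9, Cyp2d10 and Cyp2d11 are the least certain of the protein-coding members. Wild mice also differ from the C57BL/6 reference to which all reads were aligned, and the part of such mismatches in the values was not tested.

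RefSeq promoter windows (GRCm38.p6, 250 bases before to 50 after an annotated start of transcription) were at hand for 5 members, Cyp2d9, Cyp2d10, Cyp2d11, Cyp2d40 and Cyp2d26. For Cyp2d10 and Cyp2d26 that start lies inside the listed gene, whose 5′ end is at 82407253 and 82794452. Part of the bases before the start are therefore within the gene. The windows of Cyp2d9 and Cyp2d10 are printed because the genes are near-copies whose transcripts differed in the size of the step between the sexes, and that of Cyp2d26 because it was the leading member in females. Each is written 5′ to 3′ on the strand of the gene, with matches to the motifs searched in capitals.

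Cyp2d9, chr15:82452127-82452426, plus strand: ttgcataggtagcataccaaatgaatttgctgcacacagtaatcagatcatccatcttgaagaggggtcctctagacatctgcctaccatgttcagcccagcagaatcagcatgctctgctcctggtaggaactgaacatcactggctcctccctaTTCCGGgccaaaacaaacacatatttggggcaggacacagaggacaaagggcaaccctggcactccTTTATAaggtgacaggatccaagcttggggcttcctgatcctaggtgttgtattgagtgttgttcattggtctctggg

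Cyp2d10, chr15:82407145-82407444, minus strand: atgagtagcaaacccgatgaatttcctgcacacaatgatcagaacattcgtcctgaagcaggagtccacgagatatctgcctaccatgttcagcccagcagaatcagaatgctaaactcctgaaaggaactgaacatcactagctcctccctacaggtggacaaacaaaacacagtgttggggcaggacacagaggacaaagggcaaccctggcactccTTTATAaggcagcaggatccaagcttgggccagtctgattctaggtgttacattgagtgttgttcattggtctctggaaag

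Cyp2d26, chr15:82794196-82794495, minus strand: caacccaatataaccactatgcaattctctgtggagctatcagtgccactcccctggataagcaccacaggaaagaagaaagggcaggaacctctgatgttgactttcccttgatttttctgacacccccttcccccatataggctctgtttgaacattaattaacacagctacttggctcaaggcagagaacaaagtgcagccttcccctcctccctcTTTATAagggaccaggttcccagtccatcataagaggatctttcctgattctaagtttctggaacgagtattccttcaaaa

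The letters TATAAA, the core of a TATA box, were found on either strand in 5 of 5 of these windows, against 13.6% of all 32851 RefSeq windows. These are not independent windows: Cyp2d9, Cyp2d10, Cyp2d11 and Cyp2d40 share an identical run of 15 bases that holds the letters. On the strand of the gene, TATAAA itself was found in Cyp2d11 only. In Cyp2d9, Cyp2d10 and Cyp2d26 the match read TTTATA and began 28, 31 and 31 bases before the start. CCGGAA, a core bound by ETS factors such as the GA-binding protein, was found in Cyp2d9 alone among the 5, as TTCCGG beginning 94 bases before the start, and in 14.9% of all windows. The letters TTCNNNGAA of STAT factors (8.3% of all windows), CAAAGTCCA of HNF4A (0.475%) and TTGCNNAA of C/EBP factors (10.8%) were in none of the 5. None of these matches is evidence of binding. To show how the copies differ at the ETS letters, the aligned 30 bases are given for the 3 close relatives, with capitals on the ETS letters where they occur.

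Cyp2d9: ggctcctccctaTTCCGGgccaaaacaaac

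Cyp2d11: gggtcctccctatcccgggccaaaaaaaac

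Cyp2d10: agctcctccctacaggtggacaaacaaaac

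Counted from 1 at the 5′ end of the Cyp2d9 window, Cyp2d11 differed from Cyp2d9 within these letters by T158C only, and Cyp2d10 by T157C, T158A, C159G, C160G and G161T. Nearer the start, a run of 32 bases was identical in Cyp2d9, Cyp2d10 and Cyp2d11 and holds their shared TATA letters (tttata). It was picked out after the windows had been compared.

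Shared run: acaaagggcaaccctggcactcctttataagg

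Levels are given as FPKM, fragments per kilobase of transcript scaled to the mapped fragments of the library, which allows genes of different length to be compared. In all 4 males the order began with Cyp2d9, Cyp2d10, Cyp2d26, Cyp2d13 and Cyp2d22, whereas in both females Cyp2d26 and Cyp2d10 led and Cyp2d9 stood below Cyp2d13 and Cyp2d22. Cyp2d40, Cyp2d11 and Cyp2d12 were at 63.7 FPKM or below in every mouse, and Cyp2d34 at 1.53 or below. The plot of FPKM by mouse shows these levels.

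**Figure D1:**
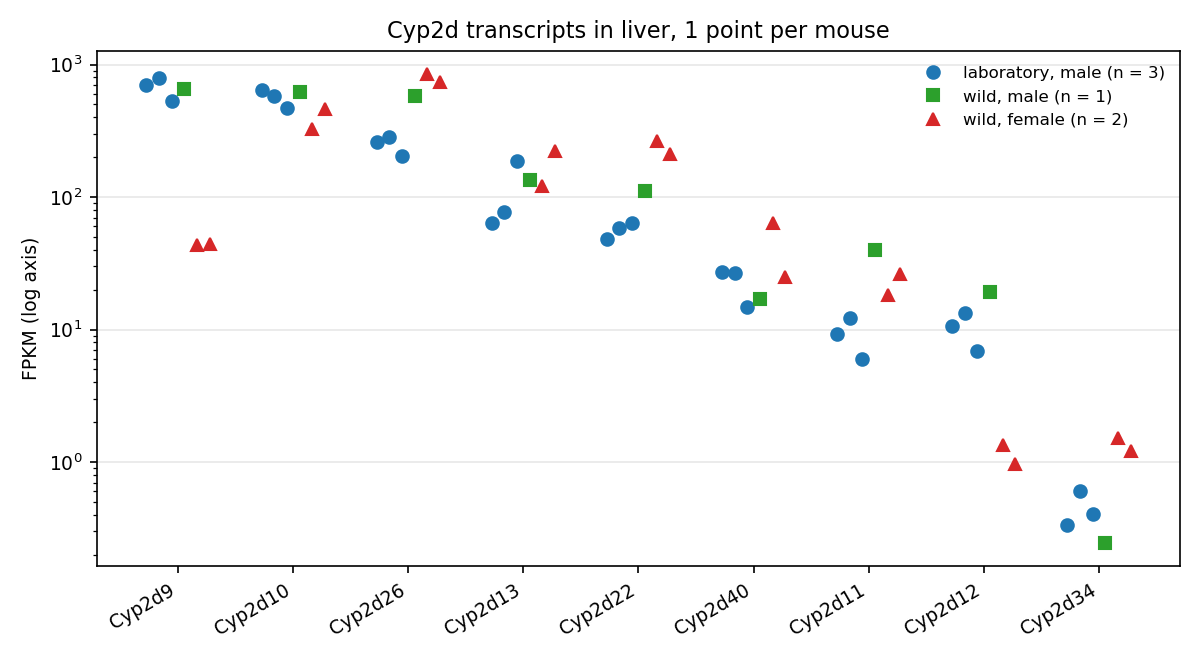
FPKM (log axis) of the 9 Cyp2d members, 1 point per mouse (circles, laboratory males; square, wild male; triangles, wild females). The wild females sit near 44 FPKM for Cyp2d9, where all 4 males are above 500, and below every male for Cyp2d12.

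Cyp2d9 was a high-level transcript in every male and a moderate one in both females. Its FPKM was 706, 789 and 528 in laboratory mice 1, 2 and 3, 655 in the wild male, with only 43.6 and 44.3 in the wild females. The males did not overlap the females, and the wild male lay inside the range of the laboratory males. By level Cyp2d9 ranked between 90 and 134 among all genes in the 4 males, and 1539 and 1531 in the females. The wild male was 14.9-fold above the mean of the wild females, whereas the mean of the laboratory males was 1.03-fold that of the wild male.

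On zFPKM, the authors' score of log2 FPKM relative to the main peak of expressed genes in each mouse, Cyp2d9 was 1.24 higher in males (SE 0.137) with origin in the model, and passed the test (limma, Benjamini-Hochberg adjusted p = 9.72e-04). It was the only member called in that comparison, in which 0.0644% of all genes tested were called higher in males (12 genes) and 0.306% lower (57 genes). The call rests on the single wild male and on both females: without wild mouse 2 or without wild mouse 3 the difference was 1.26 or 1.22, with limma adjusted p = 0.820 and 0.664. Without sex in the model Cyp2d9 was 1.13 higher in laboratory mice (SE 0.109, limma adjusted p = 2.33e-22), and with sex in the model 0.30 higher (95% interval 0.02 to 0.58, limma adjusted p = 0.181). The first of these p-values needs care. limma gave the gene the typical spread at its level, an SD of 0.134, while its own residual SD was 0.510, since the wild group held both a male and females. The call was lost in 6 of 17 alternatives, among them log2(FPKM + 0.1) (limma adjusted p = 0.0615). Without the trend the adjusted p was 0.117, and an exact two-sided permutation test over the mice gave p = 0.10, the smallest that 3 against 3 allows. All 4 males against both females gave exact p = 0.0667, again the smallest possible, with origin unequal between the sexes.

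Cyp2d12, the other plus-strand member, also had every male above both females, at a far lower level. Its FPKM was 10.6, 13.4 and 6.85 in the laboratory males, 19.1 in the wild male, but 1.35 and 0.962 in the wild females. The groups by sex did not overlap, and the wild male was the highest of all mice. The wild male stood 16.5-fold above the mean of the wild females. Cufflinks, the authors' quantifier, bounded the female values at 0.944 to 1.76 and 0.576 to 1.35, well below the lower bound of 5.74 for the lowest laboratory male. In zFPKM the difference was 1.10 (SE 0.312) higher in males, which missed the threshold over all genes (limma adjusted p = 0.203). On log2(FPKM + 0.1) it was 3.95 and passed (limma adjusted p = 0.0261). Against wild mice as a whole Cyp2d12 was called 0.81 higher in laboratory mice (SE 0.211, limma adjusted p = 0.00204), where limma again used a smaller SD (0.258) than the gene's own (0.546). That call was lost without laboratory mouse 1, laboratory mouse 2 or wild mouse 3 (limma adjusted p = 0.0861, 0.105 and 0.197), and on log2(FPKM + 0.1) (limma adjusted p = 0.213). In all it was lost in 12 of 17 alternatives, among them a floor of -5, quantile normalization and limma without trend (limma adjusted p = 0.0826, 0.0856 and 0.257). With sex in the model the difference was 0.07 (95% interval -0.56 to 0.71), and its sign turned on other scales.

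Cyp2d10, beside Cyp2d9 in level, differed far less between mice. Its FPKM was 643, 578 and 472 in the laboratory males, 622 in the wild male, with 326 and 461 in the wild females. The highest female was just under the lowest male. The ratio of the wild male to the female mean was 1.58, and the highest mouse was 1.97-fold above the lowest. Cyp2d10 was called 0.35 higher in laboratory than in wild mice (SE 0.103, limma adjusted p = 0.00734; exact p = 0.10). The call was lost on log2(FPKM + 0.1), where the difference was 0.30 (limma adjusted p = 0.388), and without laboratory mouse 1 or wild mouse 2 (limma adjusted p = 0.0918 and 0.166). It was lost in 10 of 17 alternatives in all. In the model with sex it was 0.24 higher in laboratory mice (95% interval -0.04 to 0.53, limma adjusted p = 0.289), and 0.16 higher in males (95% interval -0.13 to 0.46, limma adjusted p = 0.552).

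The ratio of Cyp2d9 to Cyp2d10 set the sexes apart within each liver. It was 1.10, 1.37 and 1.12 in the laboratory males, 1.05 in the wild male, but 0.134 and 0.0962 in the females. These near-copies stood at about equal levels in males, and Cyp2d9 far below Cyp2d10 in females.

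Cyp2d11, the closest coding relative of Cyp2d10, differed by origin in FPKM. It stood at 9.26, 12.2 and 5.98 FPKM in the laboratory males, 40.0 in the wild male, with 18.1 and 26.3 in the wild females. Every laboratory mouse was below every wild mouse, and the wild male was the highest. The wild mean was 3.08-fold above the laboratory mean. The ratio of Cyp2d10 to Cyp2d11 was 69.5, 47.4 and 78.9 in laboratory mice and only 15.6, 18.0 and 17.5 in wild mice, a comparison within each liver which a scaling factor per mouse leaves as it is. In zFPKM, however, the difference was -0.33 (95% interval -0.67 to -0.004, limma adjusted p = 0.188), and on log2(FPKM + 0.1) it was -1.59 (limma adjusted p = 0.00771).

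Cyp2d26, at the far end of the cluster, was the member with the highest level in females. Its FPKM was 261, 285 and 203 in the laboratory males, 577 in the wild male, with 846 and 735 in the wild females. All wild mice were above all laboratory mice, and both females were above the wild male. The wild mean was 2.88-fold above the laboratory mean. In zFPKM Cyp2d26 was -0.27 in laboratory against wild mice (SE 0.105, limma adjusted p = 0.0639), which missed the threshold, and -0.21 in males against females (95% interval -0.51 to 0.09, limma adjusted p = 0.528). On log2(FPKM + 0.1) it was 1.52 lower in laboratory mice and passed (-1.52, limma adjusted p = 9.68e-04).

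Cyp2d22, often named as the mouse gene most like the human drug-metabolising enzyme, had a similar order of mice. Its FPKM was 47.9, 58.1 and 64.2 in the laboratory males, 112 in the wild male, with 264 and 213 in the wild females. Laboratory and wild mice did not overlap, and neither did males and females. The female mean was 2.14-fold above the wild male, which was 1.97-fold above the laboratory mean. In zFPKM the differences were -0.32 for laboratory against wild (SE 0.124, limma adjusted p = 0.0572) and -0.52 for male against female (SE 0.150, limma adjusted p = 0.221). Laboratory and wild males differed, in the model with sex, by 0.02 (95% interval -0.29 to 0.33). On log2(FPKM + 0.1) the same comparison gave -0.99 (limma adjusted p = 0.0235), so the sign for this gene depends on the scale.

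Cyp2d40 and Cyp2d34 were the other members with higher values in the wild females than in the wild male. Cyp2d40 stood at 27.2, 26.9 and 14.9 FPKM in the laboratory males, 17.1 in the wild male, with 63.7 and 24.9 in the wild females. The high value was that of wild mouse 2, and the groups overlapped by origin and by sex. In zFPKM it was -0.66 in males against females (SE 0.277, limma adjusted p = 0.421). Cyp2d34 was barely detected, at 0.335, 0.607 and 0.406 FPKM in the laboratory males, 0.245 in the wild male, with 1.53 and 1.21 in the females. All males were below both females, a 5.57-fold step between the wild male and the female mean at very low levels (-1.32 in zFPKM, 95% interval -2.29 to -0.34, limma adjusted p = 0.311).

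**Figure D2:**
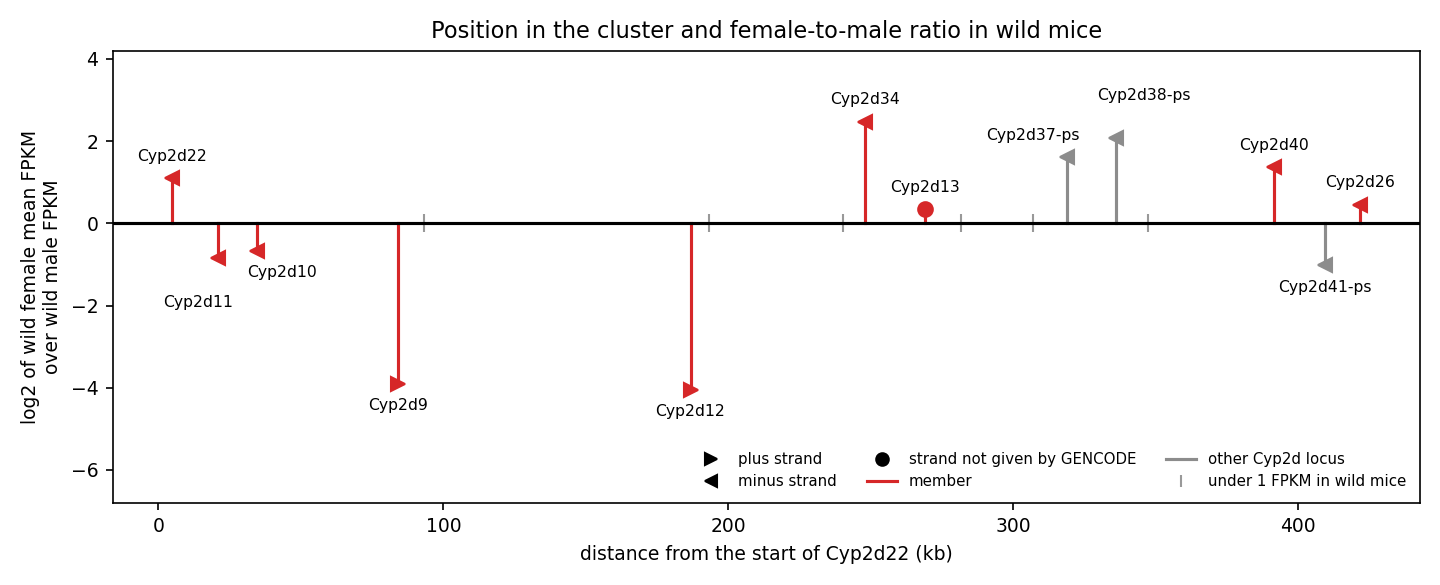
Log2 ratio of the mean FPKM of 2 wild females over the FPKM of 1 wild male (vertical axis) at each Cyp2d locus by distance from the start of Cyp2d22 in kb (horizontal axis). Markers point in the direction of transcription. The deepest negative values are at Cyp2d9 and Cyp2d12, the plus-strand members, and loci under 1 FPKM in wild mice are marked by a tick only.

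Along the chromosome, the members higher in the wild male (Cyp2d11, Cyp2d10, Cyp2d9 and Cyp2d12) lay next to each other, and those with a higher mean in the wild females were Cyp2d22 before them and Cyp2d34, Cyp2d13, Cyp2d40 and Cyp2d26 after them. For Cyp2d13 wild mouse 2 was below the wild male. The map of the cluster shows this order, which rests on the FPKM of 1 male and 2 females. It depends on the scale: with a median of 0 in each mouse, Cyp2d13 and Cyp2d26 were higher in males (0.23 and 0.26 in zFPKM).

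Cyp2d13 varied more by individual than by group. Its FPKM was 63.7, 77.0 and 186 in the laboratory males, 135 in the wild male, with 121 and 222 in the wild females. Laboratory mouse 3 and wild mouse 3 had the high values, and all groups overlapped. The difference between laboratory and wild mice was 0.05 in zFPKM (95% interval -0.19 to 0.28, limma adjusted p = 0.861). GENCODE lists an antisense gene, Gm49431, over the locus. Whether the authors counted by strand is not given in the sources used here, so reads from either gene cannot be told apart.

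The pseudogene Cyp2d37-ps, downstream in the cluster, had the same order of laboratory mice as Cyp2d13 but not the same level in wild mice. It stood at 40.6, 51.1 and 123 FPKM in the laboratory males and at 6.38, 7.21 and 31.6 in wild mice 1, 2 and 3. Laboratory mice were all above wild mice, and laboratory mouse 3 and wild mouse 3 were again the highest of their groups. The ratio of Cyp2d13 to Cyp2d37-ps was 1.57, 1.51 and 1.51 among laboratory mice, against 21.2, 16.9 and 7.0 among wild mice 1, 2 and 3. It was therefore nearly constant in the inbred strain and higher, with a wide spread, in wild mice. The sequence of Cyp2d13 was not compared with that of Cyp2d37-ps, so the part of shared reads in this ratio was not tested. Cyp2d37-ps was called higher in laboratory mice by 1.14 in zFPKM (SE 0.151, limma adjusted p = 6.79e-12), and by 1.63 with sex in the model (SE 0.234, limma adjusted p = 0.00230). The first of these p-values needs the care given for Cyp2d9. The SD of zFPKM was 0.198 among laboratory mice and 0.530 among wild mice.

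A further pair of pseudogenes also stood higher in laboratory mice. Cyp2d41-ps, which lies between Cyp2d40 and Cyp2d26, was at 27.7, 41.3 and 23.1 FPKM in laboratory mice and at 14.3, 7.07 and 7.08 in wild mice, and was called 0.83 higher in zFPKM (SE 0.166, limma adjusted p = 1.96e-05) and 0.79 higher with sex in the model (limma adjusted p = 0.0493). Its transcript matched that of Cyp2d40 at 87.4% of aligned bases, and the ratio of Cyp2d40 to Cyp2d41-ps was 0.981, 0.651 and 0.645 in laboratory mice against 1.20, 9.003 and 3.52 in wild mice. Cyp2d67-ps, which lies outside the cluster (81967701 to 81968549), at 0.545 to 1.27 FPKM in laboratory mice and at most 0.137 in wild mice, was called 1.66 higher (limma adjusted p = 0.00294) but did not pass with sex in the model (1.52, limma adjusted p = 0.125). The remaining 7 pseudogenes stood at 3.58 FPKM or below in every mouse.

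**Figure D3:**
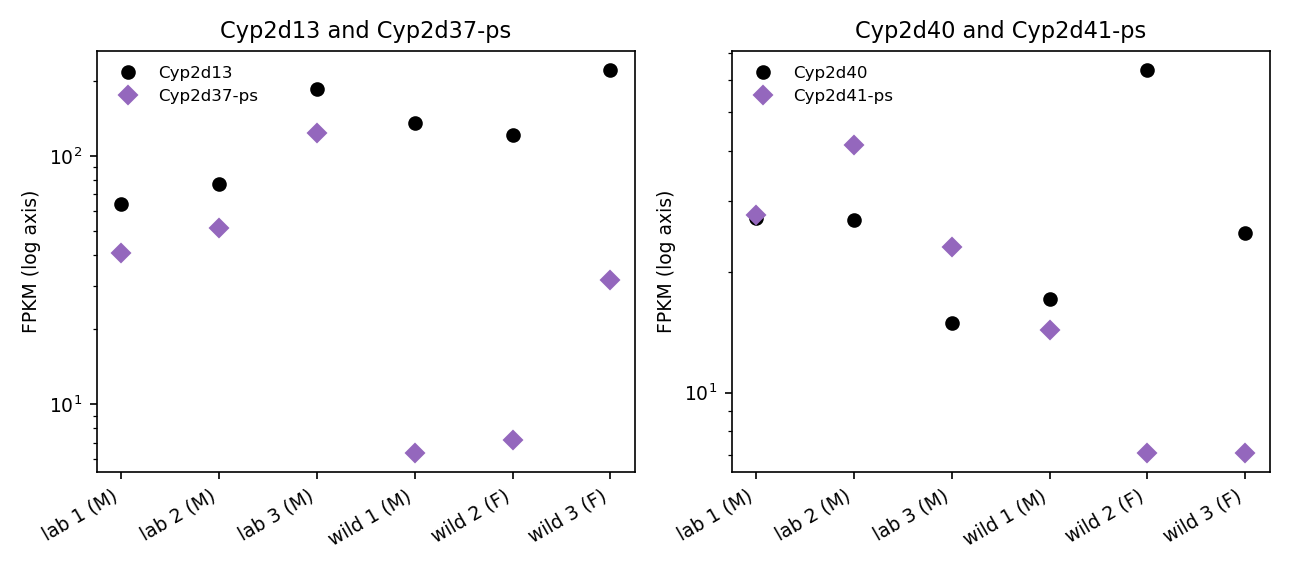
FPKM (log axis) of Cyp2d13 with Cyp2d37-ps (left) and of Cyp2d40 with Cyp2d41-ps (right) in each mouse (M, male; F, female). The 2 loci of the left pair keep a ratio of 1.51 to 1.57 in the laboratory mice and part in every wild mouse, most in the male (21.2). The right pair parts most in the wild females (9.003 and 3.52).

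Taking the 9 members together, 3 were called higher in laboratory mice (Cyp2d9, Cyp2d10 and Cyp2d12) and none lower, where 7.18% of all genes tested were called higher and 7.27% lower. With sex in the model no member passed in either direction, against 5.86% of all genes higher and 1.29% lower in laboratory mice. Beside that count of 0 by limma, Cyp2d9 alone had an unadjusted p under 0.05 (0.0364). Laboratory mouse 3 decided several of these calls. Without it Cyp2d9, Cyp2d34 and Cyp2d40 passed as higher in laboratory mice with sex in the model (0.34, 1.11 and 0.75, limma adjusted p = 0.00951, 0.0126 and 0.0353). By sex, Cyp2d12 then passed as higher in males beside Cyp2d9, and Cyp2d22, Cyp2d26 and Cyp2d34 as lower, with limma adjusted p from 0.0229 to 0.0480 for these 4. Without the wild male Cyp2d22 passed as lower in laboratory mice (-0.50, limma adjusted p = 0.0113). The median difference of the members was 0.05, 0.21 and -0.21 zFPKM in the 3 comparisons (origin, origin with sex, and sex), beside 0.01, 0.27 and -0.38 over all genes tested, so that changes with sex in the model have to be read against a shift of the whole table. The plot of differences shows the members with their intervals.

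**Figure D4:**
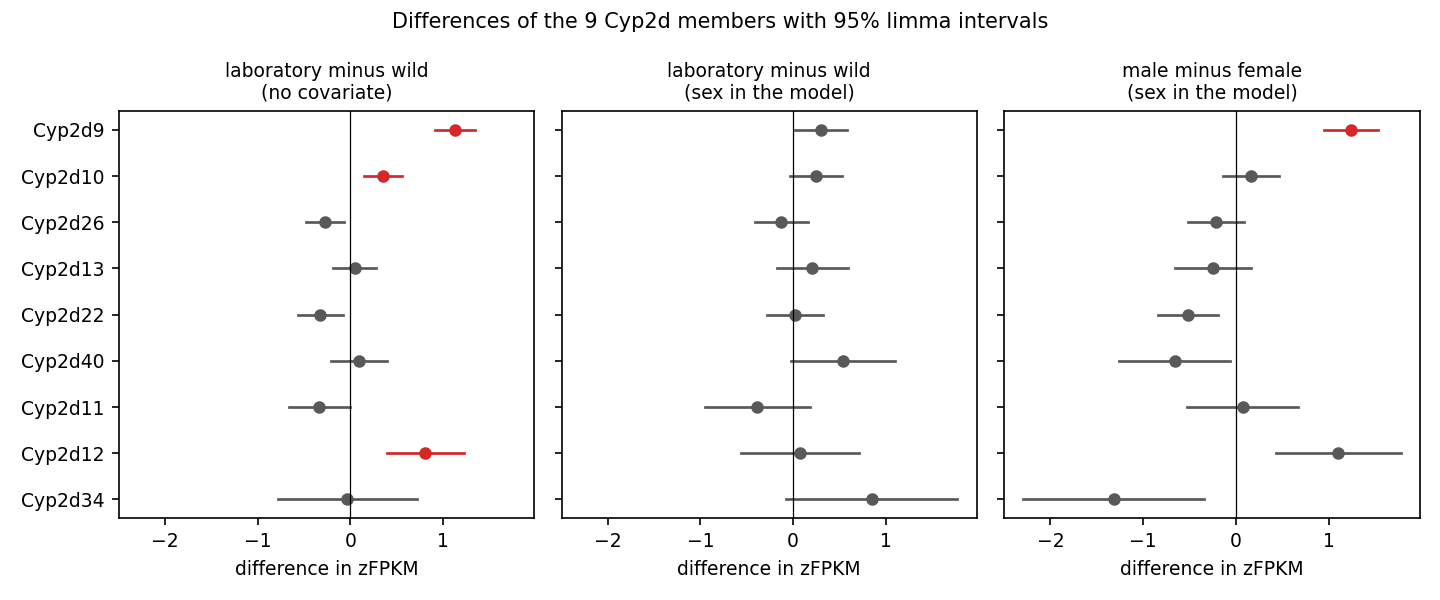
Difference in zFPKM (horizontal axis) of each member in the 3 comparisons, with 95% limma intervals, and red where the adjusted p was under 0.05. Cyp2d9 is red in the left and right panels, Cyp2d10 and Cyp2d12 in the left panel, and none in the middle panel.

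The calls depend on the scale. On log2(FPKM + 0.1), where the median over all genes was -0.47 in laboratory against wild mice, other members were called: Cyp2d11, Cyp2d22 and Cyp2d26 were lower in laboratory mice and none was higher, beside 38% of all genes lower and 8.18% higher. Once sex was in the model the same 3 were called lower, beside 27% of all genes lower and 5.45% higher. For sex, Cyp2d9 and Cyp2d12 were called higher in males, beside 0.145% of all genes higher and 0.29% lower. In FPKM itself, no member had every laboratory mouse above every wild mouse (12.1% of all genes did), and Cyp2d11, Cyp2d22 and Cyp2d26 had every laboratory mouse below every wild mouse (43.7% of all genes). All males were above both females for Cyp2d9, Cyp2d10 and Cyp2d12 (6.33% of all genes) and below them for Cyp2d22, Cyp2d26 and Cyp2d34 (25% of all genes). Members below in laboratory mice, or in males, were 3 of 9 in each case, and these shares are to be read against those over all genes, since FPKM differences between mice of a few fold carry this shift.

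Measured as a sum, the family ranged from 1480.1 to 2178 FPKM between livers, on the scale whose shift over all genes is given above. The summed FPKM of the 9 members was 1770, 1840.2 and 1480.1 in the laboratory males, 2178 in the wild male, with 1686 and 1728 in the wild females. The females lay inside the range of the laboratory males. Without Cyp2d9 the mean sum was 1022.6 FPKM in laboratory and 1616.4 in wild mice. The make-up of the sum differed. Cyp2d9 made up 39.9%, 42.9% and 35.6% of the sum in the laboratory males, 30.1% in the wild male, but 2.59% and 2.56% in the females. Cyp2d26 made up 14.8%, 15.5% and 13.7% in the laboratory males, 26.5% in the wild male, with 50.2% and 42.5% in the females. Cyp2d22 made up 2.70% to 4.33% in laboratory males, 5.12% in the wild male, with 15.6% and 12.3% in the females. The order Cyp2d9, Cyp2d10, Cyp2d26 led in all 4 males, and Cyp2d26, then Cyp2d10, led in both females, as the plot of the summed FPKM shows. A lower level in a bulk sample can mean fewer cells that express a gene or less RNA per cell, which cannot be told apart.

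**Figure D5:**
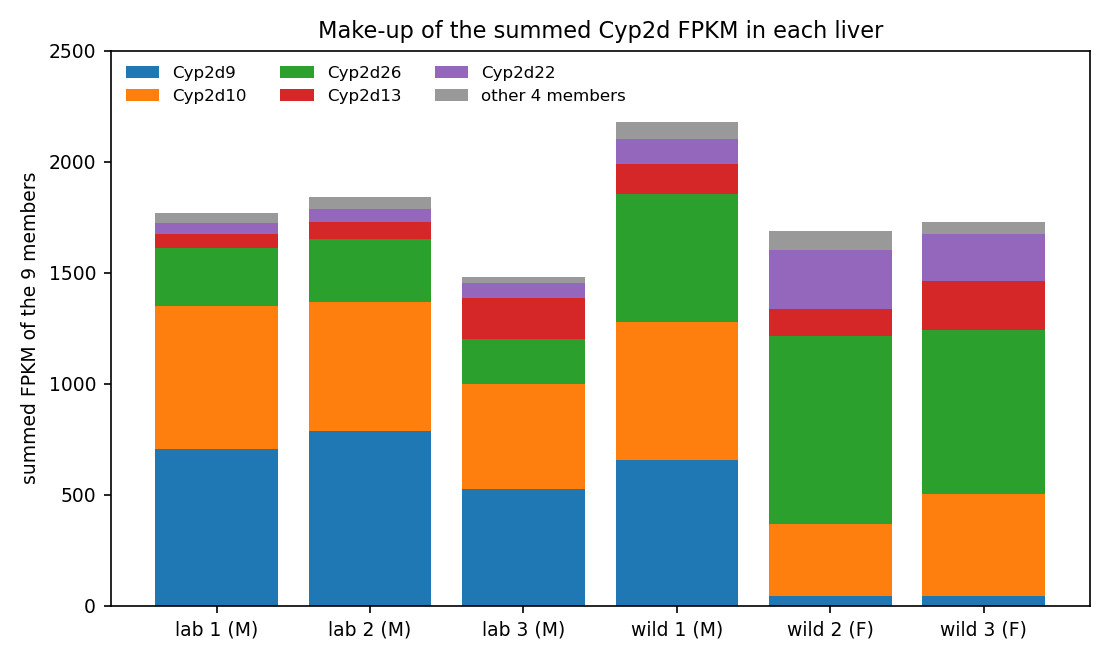
Summed FPKM of the 9 members in each liver (M, male; F, female), stacked by member. Bars reach 1480.1 to 2178 FPKM, and Cyp2d9 is a thin band of about 44 FPKM in the females, where Cyp2d26 is the widest.

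Electron donors of cytochrome P450 enzymes were read from a list of 7, which also holds donors outside the endoplasmic reticulum. Por, the NADPH-cytochrome P450 reductase, stood at 44.9, 39.7 and 44.0 FPKM in laboratory mice and at 116, 245 and 153 in wild mice, and was called lower in laboratory mice by 0.41 in zFPKM (-0.41, limma adjusted p = 0.0141). Cyb5b, the cytochrome b5 of the outer mitochondrial membrane, stood at 23.2 to 29.5 against 111 to 184 FPKM, and was called lower as well (-0.58, limma adjusted p = 3.39e-04). Of the pair, Cyb5b passed with sex in the model (-0.64, limma adjusted p = 0.0368) and Por did not (-0.14, limma adjusted p = 0.641). The other 5 of 7 passed in neither comparison. Among them was the other cytochrome b5 of the list, Cyb5a, at 814 to 1211 against 1587.5 to 1929 FPKM (0.006 in zFPKM without sex in the model, limma adjusted p = 0.981). Of 9 genes of haem synthesis and breakdown, Cpox and Fech, which act late in the pathway, were called lower in laboratory mice (-0.57 and -0.48, limma adjusted p = 0.00389 and 0.0147), and 7 did not pass. Neither call held with sex in the model (limma adjusted p = 0.147 and 0.199).

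Among 16 transcription factors of hepatocytes, Nr1h4, the bile acid receptor FXR, was called higher in laboratory mice (0.51, limma adjusted p = 0.00237) and Rxra, the partner of many nuclear receptors, lower (-0.55, limma adjusted p = 0.00241). Among 15 genes of growth hormone signalling and its read-outs, Bcl6 (0.60, limma adjusted p = 0.0185), Igf1 (0.70, limma adjusted p = 2.54e-06) and Socs2 (0.81, limma adjusted p = 7.96e-04) were higher in laboratory mice and Cux2 (-1.31, limma adjusted p = 0.0197) was lower. Cux2, a female-biased repressor in mouse liver, was at most 0.0903 FPKM in all 4 males and at 6.10 and 7.79 in the females, and was the only gene of that list called by sex (-2.70, limma adjusted p = 0.0281). Its step between the sexes was thus opposite in direction to that of Cyp2d9. In the model with sex Bcl6, Igf1, Socs2 and Nr1h4 passed again and Cux2 and Rxra did not.

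Of 30 listed genes within 250 kb of the members or between them, 13 were tested, and 3 passed without sex in the model. Ndufa6, a subunit of respiratory complex I, was higher in laboratory mice (0.47, limma adjusted p = 1.29e-04), as was Smdt1, a subunit of the mitochondrial calcium uniporter (0.47, limma adjusted p = 0.00147). Srebf2, the regulator of sterol synthesis, was lower (-0.54, limma adjusted p = 0.0323). Ndufa6 and Smdt1 passed again with sex in the model and Srebf2 did not (-0.32, limma adjusted p = 0.421). None of the 13 was called by sex.

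The genes with the zFPKM pattern most like that of a called member were found by the root mean square distance of centred values over the 6 mice, among 10273 candidates. Nearest to Cyp2d9 was Mup17, a major urinary protein (distance 0.126), at 6455, 3836 and 3376 FPKM in the laboratory males, 4342 in the wild male, with 290.3 and 419 in the females. C6, a complement component (0.191), Fitm1 (0.205), Gm18635 (0.227) and C730027H18Rik (0.228) followed, all with both females below every male. Nearest to Cyp2d10 were Ugt2b5 (0.0371), Mettl7b, Rps14, Aox3 and Hes6. Nearest to Cyp2d12 were Srd5a1, a steroid reductase (0.233), Cox7a1, Nudt7, Spon2 and Rarres1.

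The libraries differed in ways that bear on these values. Each was deposited as FPKM, and the read depth behind it is unknown. The centre of the log2 FPKM distribution ranged from 0.49 in laboratory mouse 1 to 2.51 in the wild male. The levels of Xist and of Y-linked genes matched the labelled sex in 6 of 6 mice. Hepatocyte markers were abundant in every liver, with sums of 30297 to 43488 FPKM over 6 genes in laboratory and 22166 to 24960 in wild mice. The sum follows its most abundant genes, Apoa1 and Ttr, which were lower in every wild mouse than in every laboratory mouse. Fgb and Ambp were higher in every wild mouse, and Serpina1a and Hpx overlapped. The 7 Kupffer cell markers summed to 32.5 to 41.8 FPKM in laboratory mice and to 12.8, 47.8 and 121 in wild mice 1, 2 and 3, so the wild male was lowest of all. Sums for endothelial markers were 23.5 to 37.8 against 21.1 to 66.6 FPKM, for stellate cell markers 35.1 to 54.6 against 74.2 to 136, for cholangiocyte markers 29.7 to 64.6 against 12.2 to 27.6, for lymphocyte markers 4.36 to 5.05 against 1.55 to 4.26, and for red cell genes 877 to 3526 against 507 to 1248. Within the stellate list Dcn alone stood at 21.7 to 32.4 against 62.7 to 112 FPKM. Col1a1 and Col3a1 were called higher in laboratory mice without sex in the model (0.83 and 0.70, limma adjusted p = 0.0258 and 0.0100). The other 5 of these 7 markers, Dcn among them, were not called there. Pancreatic markers summed to at most 18.9 FPKM, with Prss2 at 0 throughout. Pericentral markers summed to 507 to 909 FPKM in laboratory and 4419 to 4971 in wild mice, and periportal markers to 1834 to 2487 and 4715 to 5751. Summed over the genes estimated in all mice, 10 female-biased liver genes reached 4.51 to 8.37 FPKM in laboratory males, 230.3 in the wild male, against 7703 and 6045 for the wild females, and 7 male-biased ones 308 to 487, 446, and 68.5 and 118. Within the male-biased list Cyp4a12a, Cyp4a12b, Elovl3 and Hsd3b5 had every male above both females. The sexes overlapped for Cyp7b1, Ugt2b38 and Slco1a1. Hsd3b5 stood at 60.3 to 104 FPKM in laboratory males but at 4.21 in the wild male. The part of cell make-up in the Cyp2d values was not tested.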

How the data were processed

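Liver mRNA of 6 mice was measured by the authors with stranded libraries and single reads, aligned to the masked GRCm38.p6 genome with kalign. FPKM values were computed by the authors with the Tuxedo tools, and the deposited zFPKM score is log2 FPKM minus the mode, divided by a spread, both set per mouse. Files hold 49995 to 52188 entries per mouse, with no read counts, so the edgeR test of the study could not be used. Members and gene lists were chosen with earlier results of these data known. Named genes are the members, the other Cyp2d loci, called genes of the lists and neighbours, and the 5 nearest in pattern. zFPKM under -3 was set to -3, a gene was tested if above it in at least 3 mice, and failed estimates (24 gene names, and 4 more at 0 in laboratory mouse 1) were taken as missing. Differences across all genes were tested with limma 3.58.1 (R 4.3.3) with trend and Benjamini-Hochberg adjustment at 0.05, after a check on simulated data, and single members by an exact permutation test. The model with sex left 3 residual degrees of freedom. Without sex in the model limma used the typical spread at each gene's level. Its p-values there can be too small for genes that vary more. Sequences are from RefSeq GRCm38.p6 and GENCODE M21. Replicates are separate mice. Alternatives tried were other floors, scales, filters, scalings and variance models, and leaving out mice. The sex check and the cell type lists (hepatocyte, Kupffer, endothelial, stellate, cholangiocyte, lymphocyte, red cell, pancreas, pericentral, periportal) were summed as FPKM. A result for 1 listed gene is not reported here.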

Additional observations from a re-analysis of the deposited data

How the results depend on the processing

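The 9 members' differences kept their direction and side of the threshold in 326 of 423 alternative values, while 32 calls were lost, 30 were gained and 35 values turned in sign. Most of the 423 belong to differences with no call to lose. Calls by origin were lost in 6, 10 and 12 of 17 alternatives for Cyp2d9, Cyp2d10 and Cyp2d12. The call of Cyp2d9 by sex was lost in 4 of 15. A value that turned in sign was not counted as gained, even where it passed (Cyp2d22 with sex in the model, both log2 scales). The count of members called in laboratory against wild mice (3) was 0 with the median set to 0 in each mouse, without a filter and in limma without trend, and 1 to 4 leaving out a mouse. With sex in the model (0) it was 3 on log2(FPKM + 0.1) and on log2(FPKM + 1), 1 with a median of 0 on zFPKM or on log2(FPKM + 0.1), the last chosen after seeing the data, and 0 to 3 leaving out a mouse. For male against female (1) it was 2 on both log2 scales, with a median of 0, with quantile normalization, with zFPKM above -3 in all 6 mice and with log2(FPKM + 0.1) centred at its median, 0 without a filter and without trend, and 0 to 5 leaving out a mouse. All genes called (2693) numbered 8597 on log2(FPKM + 0.1), 8244 on log2(FPKM + 1), 5270 with a median of 0, 7278 with quantile normalization, 21 without a filter, 794 without trend, 8807 on centred log2(FPKM + 0.1), and 1419 to 2534 leaving out a mouse. No paired analysis was possible because the laboratory and wild mice are separate animals and the labels pair none of them.

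Turned in sign without sex in the model were Cyp2d13 (-0.67 and -0.66 on log2(FPKM + 0.1) and log2(FPKM + 1), -0.079 to 0.16 leaving out a mouse), Cyp2d40 (-0.44 and -0.43, -0.12 to 0.33 leaving out a mouse), Cyp2d34 (0.0032 with a median of 0, 0.85 in males only, -0.47 to 0.26 leaving out a mouse) and Cyp2d22 (0.020 in males only). In the model with sex these were Cyp2d10 (-0.15 on both log2 scales, -0.037 with a median of 0), Cyp2d12 (-0.94, -0.88, -0.21, -0.025 with quantile normalization, -0.35 on the centred log2 scale, -0.050 to 0.30 leaving out a mouse), Cyp2d13 (-0.48, -0.48 and -0.072) and Cyp2d22 (-0.99, -0.97, -0.26, -0.072, -0.39, and -0.0031 to 0.053 leaving out a mouse). By sex they were Cyp2d13 (0.23) and Cyp2d26 (0.26), both with a median of 0. The cause was not tested. Without read counts the depth behind each value is unknown.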
